A study of Mus musculus with 10 samples.

Results

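RUNX1 binding was examined at 5 genes that carry the TGFβ signal. The cells were MLE cells, mouse biliary epithelial cells that the labels call large; cells of this kind form the lining of bile ducts. Tgfb1 and Tgfb2 encode ligands, Tgfbr1 and Tgfbr2 encode the type I and type II receptors, and Smad3 encodes the transcription factor that the type I receptor phosphorylates. A called peak belonged to a gene when its summit lay in a window that holds the gene and about 50 kb on each side. In GRCm39 coordinates the windows were chromosome 7 from 25330000 to 25460000 for Tgfb1, chromosome 1 from 186300000 to 186490000 for Tgfb2, chromosome 4 from 47300000 to 47470000 for Tgfbr1, chromosome 9 from 115860000 to 116060000 for Tgfbr2 and chromosome 9 from 63500000 to 63720000 for Smad3. They hold 135 called peaks in 6 lists. Peaks that overlapped by at least 1 bp were merged, which gave 50 sites in the windows out of 64286 regions in all.

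The study asked how RUNX1 takes part in the response of cholangiocytes to TGFβ. Cells near confluence received TGFβ at 10 ng/mL overnight or vehicle, RUNX1-bound chromatin was recovered with a polyclonal antibody, and each of the 6 ChIP libraries has its own peak list. Replicates 1 and 2 of each treatment belong to batch 1 and replicate 3 to batch 2, and libraries with the same replicate number were paired by batch and title wording. The labels give no origin of the cells and do not say whether libraries of a treatment came from separate cultures, so the p-values measure only the spread between these libraries. The 4 input libraries were not analysed here.

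Ligands of this family are secreted in a latent form. Once active, they bind the type II receptor, which phosphorylates the type I receptor, and that kinase passes the signal to SMAD2 and SMAD3, which enter the nucleus with SMAD4. RUNX proteins bind DNA through the Runt domain as partners of CBFβ, and they are known to associate with SMAD proteins at shared target genes.

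Gene starts were placed only roughly, because the gene table in hand is of another build. A nominal start was set 50 kb inside the window at the 5′ side of the gene. The windows are 3.09 to 12.3 kb longer than the RefSeq gene and 2 flanks together, so each nominal start may be off by about that distance. Positions below are distances from it, positive in the direction of transcription, and they do not tell which gene a site acts on.

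Each of the 5 windows held a site that was called in at least 1 library of both treatments and lay 2.24 to 6.43 kb downstream of the nominal start. Promoters of the genes were taken from RefSeq (GRCm38.p6, 250 bases upstream of the start). Those of Tgfb2 and Tgfbr1 are shown, because among these 5 sites theirs were the nearest to the nominal start. Each nominal start may be off by about 3.09 to 12.3 kb, so that order is uncertain. A Tgfb1 site called only in TGFβ libraries lay nearer still, 0.378 kb from the nominal start. The promoters of Tgfb2 and Tgfbr1 were also the only ones that held a RUNX hexamer. It was CGTGGT, which was added to the search after the sequences had been seen. No link between the hexamer and the distance of a site was tested. Capitals mark CGTGGT. Peaks could not be laid on these bases, since the lists are in GRCm39.
Tgfb2, chr1:186705990-186706239, minus strand: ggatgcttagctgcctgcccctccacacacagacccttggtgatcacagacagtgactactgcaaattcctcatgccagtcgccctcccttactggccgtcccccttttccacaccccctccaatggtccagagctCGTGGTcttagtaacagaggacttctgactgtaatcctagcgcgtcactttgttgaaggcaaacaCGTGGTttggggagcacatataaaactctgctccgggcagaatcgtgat
Tgfbr1, chr4:47352972-47353221, plus strand: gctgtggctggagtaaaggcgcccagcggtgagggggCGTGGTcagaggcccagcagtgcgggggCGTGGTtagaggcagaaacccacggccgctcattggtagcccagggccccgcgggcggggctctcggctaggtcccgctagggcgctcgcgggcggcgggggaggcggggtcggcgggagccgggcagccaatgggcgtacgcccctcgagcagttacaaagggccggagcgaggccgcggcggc

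The search covered both strands for 4 RUNX hexamers, a set widened after the sequences had been seen. TGTGGT, the RUNX motif fixed beforehand, was absent from all 6 sequences, so every RUNX match below is to a hexamer added later. Among 32851 mouse promoters of this length, TGTGGT was present in 14%, TGCGGT was present in 5.1%, CGTGGT was present in 6.29% and CGCGGT was present in 6.76%, while 28.7% held at least 1 of the 4. CGTGGT began 114 and 49 bases upstream of the Tgfb2 start and 213 and 185 bases upstream of the first Tgfbr1 start. The upstream bases of Tgfb1, Tgfbr2, Smad3 and the other Tgfbr1 start held none of these letters. CAGAC, the core of a SMAD site, was present upstream of Tgfb2, at 2 places, and of Tgfbr2 and the other Tgfbr1 start, at 1 place each, against 42.2% of all promoters. The AP-1 motif TGANTCA, the TEAD motif GGAATG, the ETS motif CCGGAAGT and the SMAD palindrome GTCTAGAC were searched as well and were absent from all 6 sequences, against 6.75%, 12.6%, 2.88% and 0.167% of all promoters. A match is a run of letters and not evidence of binding.

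RUNX1 peaks were more numerous with TGFβ than with vehicle in most library pairs of these windows, and the difference passed the exact test at none of the genes. Values are given in the order of replicates 1, 2 and 3. The window of Smad3, the longest of the 5, had 11, 17 and 2 peaks with TGFβ and 5, 8 and 0 with vehicle. At the ligand gene Tgfb2 there were 11, 11 and 3 peaks with TGFβ and 5, 9 and 2 with vehicle. At the other ligand gene, Tgfb1, TGFβ libraries had 8, 6 and 3 peaks and vehicle libraries 6, 7 and 0, so that pair 2 ran the other way. The receptor windows held fewer peaks: 4, 6 and 1 with TGFβ and 2, 1 and 0 with vehicle at Tgfbr1, and 3, 3 and 0 with TGFβ and 0, 1 and 0 with vehicle at Tgfbr2. Over all 6 libraries the treatments overlapped at all 5 genes, with the lowest numbers in batch 2, and at Tgfb1 they overlapped within batch 1 as well.

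Means over 3 libraries were 10.0 ± 7.55 peaks with TGFβ and 4.33 ± 4.04 with vehicle at Smad3 (SD, n = 3 per treatment; two-sided exact permutation p = 0.4). At Tgfb2 they were 8.33 ± 4.62 and 5.33 ± 3.51 (SD, n = 3 per treatment, exact p = 0.5), and at Tgfb1 5.67 ± 2.52 and 4.33 ± 3.79 (SD, n = 3 per treatment, exact p = 0.7). The Tgfbr1 window had 3.67 ± 2.52 and 1.00 ± 1.00 peaks (SD, n = 3 per treatment, exact p = 0.3), and the Tgfbr2 window 2.00 ± 1.73 and 0.333 ± 0.577 (SD, n = 3 per treatment, exact p = 0.4). With 20 labelings of 3 against 3 libraries the smallest possible p is 0.1. Relabeling within batches gave p = 0.167 at Smad3, Tgfb2 and Tgfbr1, the smallest that its 12 labelings allow, and exact p-values of 0.333 at Tgfbr2 and 0.5 at Tgfb1. These are 5 separate tests on genes chosen with earlier results known.

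**Figure D1:**
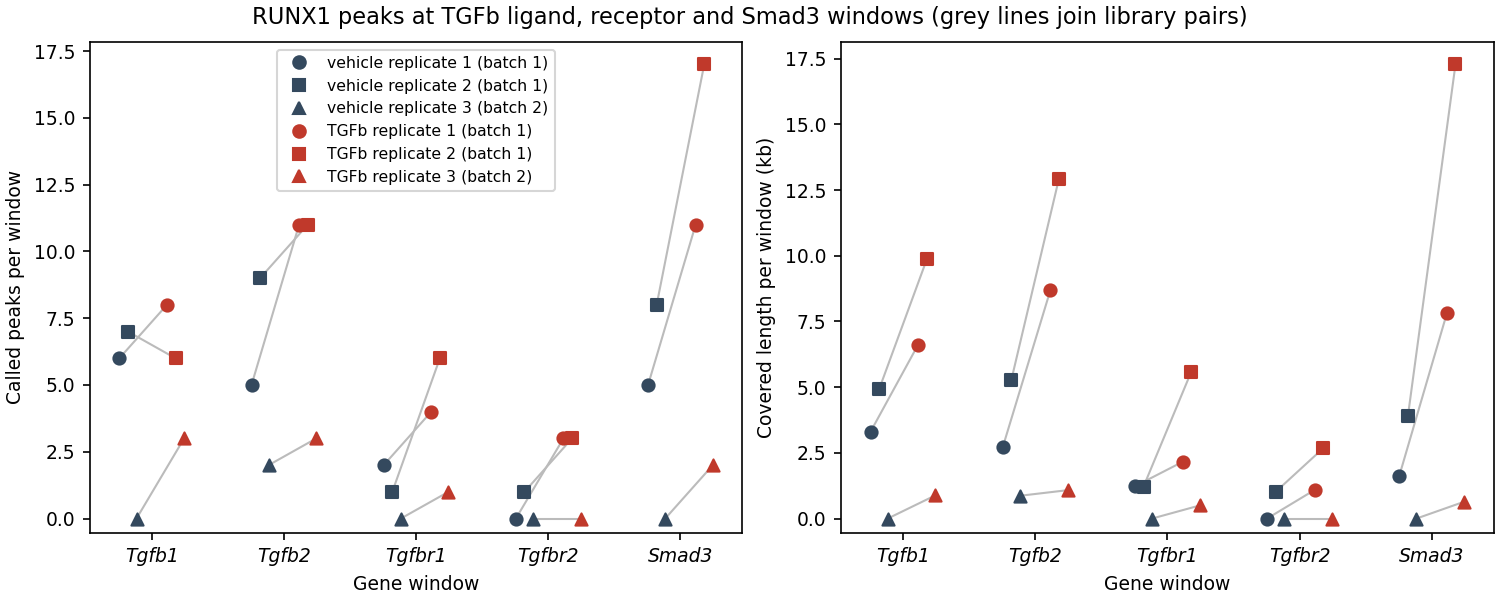
Called RUNX1 peaks (left) and length covered by peaks in kb (right) in each gene window, with 1 point per library; blue is vehicle, red is TGFβ, the marker gives the replicate and grey lines join the library pairs. Points of the batch 2 libraries (triangles) lie between 0 and 3 peaks in every window, and in the Smad3 window the batch 1 TGFβ libraries, at 11 and 17 peaks, lie above the vehicle libraries, at 5 and 8.

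Within batch 1, both TGFβ libraries had more peaks than both vehicle libraries at Tgfb2, Tgfbr1, Tgfbr2 and Smad3, and not at Tgfb1. Over the genome, 46.9% of 9438 bins of 200 kb with a peak met the same rule, and 2.88% met it over all 3 libraries per treatment, which none of the 5 windows did. The reverse, both TGFβ libraries below both vehicle libraries of batch 1, held in none of the windows and in 0.413% of the bins. Mean batch 1 numbers were 14.0 with TGFβ against 6.5 with vehicle at Smad3, 11.0 against 7.0 at Tgfb2, 5.0 against 1.5 at Tgfbr1, 3.0 against 0.5 at Tgfbr2 and 7.0 against 6.5 at Tgfb1. Batch 2, with 1 library per treatment, allows no test.

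Covered length gave a larger ratio of treatment means than peak number at Tgfb1, Tgfb2 and Smad3 and a smaller one at the receptor genes, and the treatments again overlapped. At Smad3 peaks covered 7812, 17282 and 638 bp with TGFβ and 1628, 3896 and 0 bp with vehicle, a ratio of means of 4.66 (two-sided exact permutation p = 0.3). Leaving out TGFβ replicate 2 lowered that ratio to 2.29, and leaving out vehicle replicate 2 raised it to 10.5. The ratio was 3.70 at Tgfbr2, 3.37 at Tgfbr1, 2.56 at Tgfb2 and 2.11 at Tgfb1, with exact p-values from 0.3 to 0.4 over these windows. Covered length was larger with TGFβ in 3 of 3 pairs at 4 genes. Tgfbr2 was the exception, with 2 pairs larger and 1 pair, from batch 2, at 0 in both libraries.

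Lists differed in length, from 14733 to 42050 peaks, and within batch 1 the longer lists held more peaks in the windows. Across batches this did not hold: vehicle replicate 3 had a list of 16265 peaks, longer than the 14733 of vehicle replicate 1, and fewer peaks in the windows. The 5 windows together held 37, 43 and 9 peaks with TGFβ and 18, 26 and 2 with vehicle, a ratio of means of 1.93 beside 1.80 for the whole lists. Per 10000 peaks of the list, the windows held 11.0, 10.2 and 4.79 peaks with TGFβ and 12.2, 12.04 and 1.23 with vehicle. In batch 1 the share of peaks in these windows was thus slightly lower with TGFβ (ratio of means 0.876), and in batch 2 it was higher. When each list was limited to its best peaks, as many as the shortest list holds, the ratio of peak numbers over the windows was 1.19. Under that limit the ratio of covered lengths was 1.07 at Tgfbr2, where the means then differed by 24.7 bp, 1.46 at Tgfb2, 2.24 at Tgfb1, 2.61 at Tgfbr1 and 3.60 at Smad3, with exact permutation p-values from 0.3 to 1.0. Density in the windows was 4.07 and 4.73 peaks per 100 kb in the batch 1 TGFβ lists and 1.98 and 2.86 in the batch 1 vehicle lists, above the mean of 1.78, 2.23, 0.781 and 1.14 over 200 kb bins that hold a peak in any list. In batch 2 the density was 0.989 with TGFβ and 0.22 with vehicle, against bin means of 0.995 and 0.862. The bins are not centred on genes, and no density was computed over windows of other genes.

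**Figure D2:**
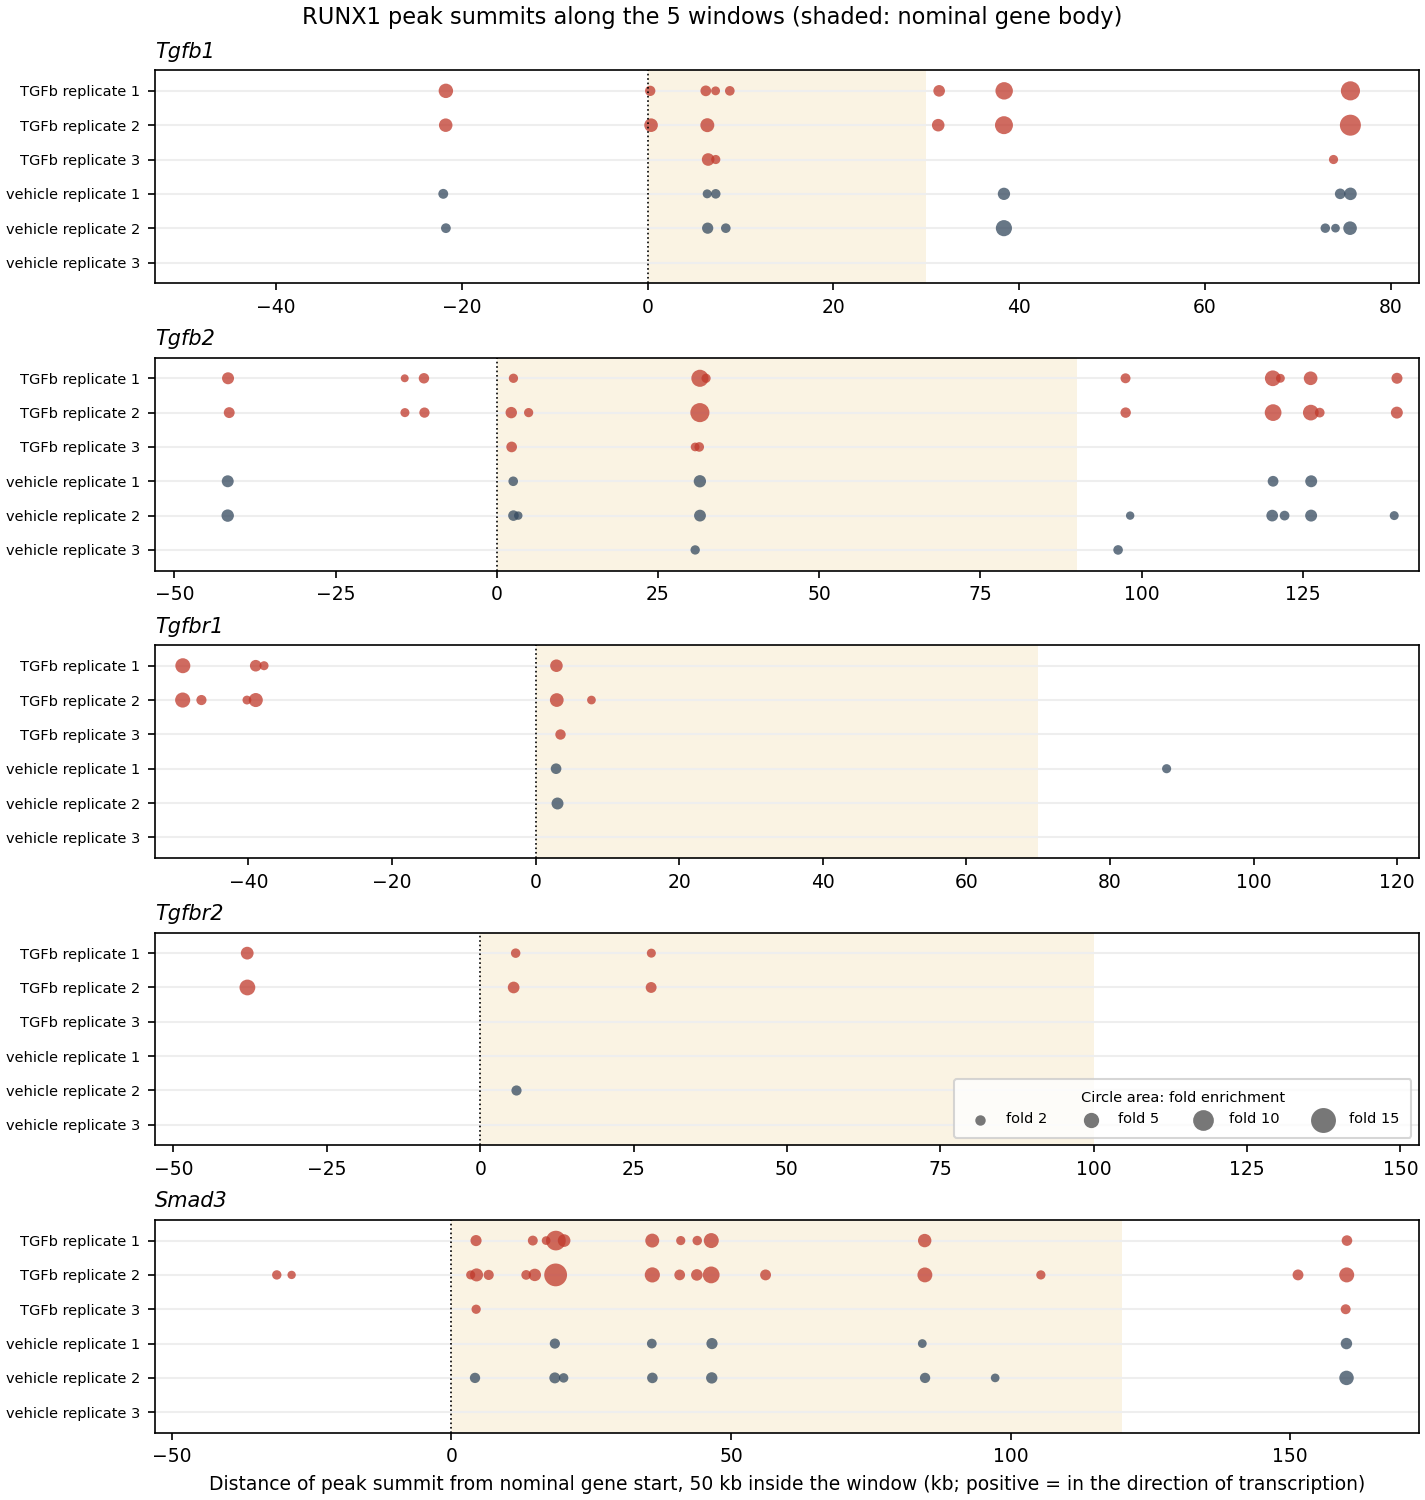
Summits of called RUNX1 peaks along each window, as distance in kb from the nominal gene start, with 1 row per library (red, TGFβ; blue, vehicle); circle area is the fold enrichment and the shading marks the nominal gene body. The large circles in the Smad3 panel for TGFβ replicates 1 and 2 stand 18.6 kb downstream of the nominal start, where the vehicle circles of batch 1 are small and batch 2 has none.

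Recurrence of the sites was compared with all merged regions. None of the 50 sites was called in all 6 lists (6.36% of all regions), none in all 3 TGFβ and no vehicle list (0.619%), and none in all 3 vehicle and no TGFβ list (0.0109%). A call in at least 5 lists was made at 6 sites (12%, against 11.0% of all regions), a call in 4 lists at 10 sites (20%, against 8.48%), and a call in 1 list at 19 sites (38%, against 50%). More TGFβ than vehicle lists called the site at 36 of 50 sites (72%, against 63.8% of all regions), and fewer did at 4 sites (8%, against 15.7%). A call in at least 1 TGFβ list and no vehicle list was made at 26 sites (52%, against 51.6%). The 4 sites with fewer TGFβ calls had none (14.6% of all regions had vehicle calls alone), and were 1 each at Tgfb1, Tgfb2, Tgfbr1 and Smad3. Each was found in 1 vehicle list, with a fold enrichment from 2.18 to 2.66.

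Fold enrichment is the deposited height of a peak at its summit over the background used for its list. It describes each list and is not scaled between libraries, and the library that supplied the background is not given. From the fold and p-value of a peak its height in fragments and the background under it were recovered, and 95% exact Poisson intervals from that number cover counting error only. Low peaks bound what a missing call means: 5% of the peaks of each list had a fold below 1.85 to 2.14, so a site absent from a list can still have been enriched at about that level.

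In the window of the ligand gene Tgfb1 the most recurrent strong site lay 75.6 kb downstream of the nominal start, beyond the nominal end of the gene. It ran on chromosome 7 from 25453574 to 25456046, near the 3′ end of the window. TGFβ libraries reached folds of 10.5, 12.7 and 2.42 there, vehicle libraries of batch 1 reached 4.54 and 5.33, and vehicle replicate 3 made no call. Both batch 1 TGFβ libraries stood above both vehicle libraries, with counting intervals of 8.81 to 12.5 and 10.7 to 14.9 against 3.41 to 5.93 and 4.13 to 6.77. The batch 1 summits fell within 43 bp of each other, while the batch 2 TGFβ peak was small, and with it the summits spanned 1824 bp.

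The start-side Tgfb1 site, on chromosome 7 from 25386079 to 25389073, had a smaller difference. TGFβ libraries gave folds of 3.32, 5.61 and 4.59, and batch 1 vehicle libraries gave 2.66 and 3.63. The batch 1 summits spanned 1066 bp. The vehicle replicate 1 value came from a peak with its summit at 25387337, and that library's peak at 25386417 had a fold of 2.31. The treatments overlapped, and 4.59 was the highest fold that TGFβ replicate 3 reached at the 16 sites called in 4 or 5 lists. A site 0.378 kb from the nominal start, from 25380174 to 25380688, was called in TGFβ replicates 1 and 2 alone, with folds of 3.08 and 5.35. Among the other Tgfb1 sites, that at 38.4 kb, also beyond the nominal end, was singled out after its values were seen. It had batch 1 folds of 8.75 and 9.29 with TGFβ and 4.37 and 7.51 with vehicle, and all 4 of its summits fell within 28 bp.

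Tgfb2 encodes a ligand that is prominent in epithelial development. Its most recurrent strong site lay 31.5 kb inside the nominal gene body, on chromosome 1 from 186407823 to 186408929. With TGFβ it reached folds of 8.43, 10.5 and 2.66, against 4.37 and 4.04 in the batch 1 vehicle libraries. The batch 1 TGFβ values were apart from the vehicle values, and the 4 batch 1 summits lay within 16 bp. A separate site close by, from 186408976 to 186409684, was called in both batch 2 lists and in no batch 1 list, with folds of 2.20 with TGFβ and 2.52 with vehicle and summits 9 bp apart.

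The start-side Tgfb2 site, from 186435705 to 186438271, had folds of 2.49, 3.76 and 3.29 with TGFβ and 2.66 and 3.23 with vehicle in batch 1. The treatments were interleaved. Upstream of the gene, at -41.7 kb, the site from 186481237 to 186482093, named after its values were seen, had folds of 4.15 and 3.42 with TGFβ and 4.11 and 4.44 with vehicle in batch 1, which gave it the lowest TGFβ to vehicle ratio among the 15 sites called in all 4 batch 1 lists. Beyond the nominal end lay 6 sites. The strongest of them, at 120.4 and 126.3 kb, chosen after their values were seen, had TGFβ folds from 5.38 to 8.06 and vehicle folds from 3.34 to 4.12 in batch 1. The other 4 had folds from 2.04 to 4.12, and 1 of these was called in vehicle replicate 3 alone.

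Of the receptor genes, Tgfbr2 had 3 sites, the fewest of the 5 genes, and Tgfbr1 had 8. Of these 8, 5 were called in 1 list and 2 in 2 lists. Over the genome, 32113 of 64286 regions were called in 1 list and 14386 in 2. Tgfbr1 encodes the receptor kinase that phosphorylates SMAD3. Its remaining site was called in 5 lists and lay 2.95 kb from the nominal start, on chromosome 4 from 47352314 to 47354854. TGFβ libraries gave folds of 4.54, 5.43 and 3.12 there, and batch 1 vehicle libraries gave 3.25 and 4.12. The batch 1 TGFβ folds were the higher ones, with counting intervals that overlapped those of vehicle. Far upstream, at -49.2 kb, the site from 47300424 to 47301133 was called in both batch 1 TGFβ libraries, at folds of 6.48 and 6.57, and in none of the other 4 lists. The site from 47310560 to 47311474, at -39.0 kb, had the same pattern, with folds of 3.89 and 5.70.

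Tgfbr2 encodes the receptor that binds the ligand and starts the kinase relay. Its start-side site, on chromosome 9 from 116003499 to 116004992, was called in 3 lists, at folds of 2.59 and 3.94 in the batch 1 TGFβ libraries and 2.99 in vehicle replicate 2. The single vehicle value lay between the TGFβ values. The strongest site of the window, at -38.0 kb from 116047635 to 116048230, was called in TGFβ replicates 1 and 2 alone, with folds of 4.70 and 7.19 and summits 31 bp apart. No batch 2 list had a peak in this window.

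Smad3 held the site with the highest fold of the 50. It lay 18.6 kb inside the nominal gene body, on chromosome 9 from 63649195 to 63653942, and is named here after its values were seen. At its summit TGFβ replicates 1 and 2 had 137 and 170 overlapping fragments over a background of 11.3 and 10.4, and vehicle replicates 1 and 2 had 34 and 42 over 10.7 and 11.4. The folds were 11.2 (95% counting interval 9.40 to 13.2) and 14.99 (12.8 to 17.4) with TGFβ, and 2.998 (2.10 to 4.16) and 3.47 (2.53 to 4.67) with vehicle. The intervals of the treatments did not overlap, the TGFβ to vehicle ratio was 3.73 in pair 1 and 4.32 in pair 2, and the 4 summits lay within 190 bp. Within the site, calls covered 2012 bp in 3 peaks in TGFβ replicate 1 and 4748 bp in 1 peak in TGFβ replicate 2, against 324 bp in 1 peak in vehicle replicate 1 and 820.0 bp in 2 peaks in vehicle replicate 2. In batch 2 the site was called in neither list.

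The nominal gene body of Smad3 held 3 more sites that all 4 batch 1 lists called, at 35.9, 46.5 and 84.7 kb, chosen after their values were seen. Their batch 1 folds ran from 5.19 to 8.15 with TGFβ and from 2.23 to 3.72 with vehicle. At the window's 12 sites called in only 1 or 2 lists the folds ran from 2.02 to 4.47. The start-side site, from 63664395 to 63666058, was called in all 3 TGFβ lists, with folds of 3.57, 4.91 and 2.47, and in vehicle replicate 2, with a fold of 3.07. The vehicle value lay below both batch 1 TGFβ folds and above the batch 2 TGFβ fold. The most recurrent site of the window, 160.1 kb from the nominal start and beyond the 3′ end, from 63509540 to 63510189, had folds of 3.24, 6.49 and 2.86 with TGFβ and 3.77 and 6.03 with vehicle in batch 1. At that site replicates 2 of both treatments were high and replicates 1 low, so the spread between replicates exceeded the difference between treatments.

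**Figure D3:**
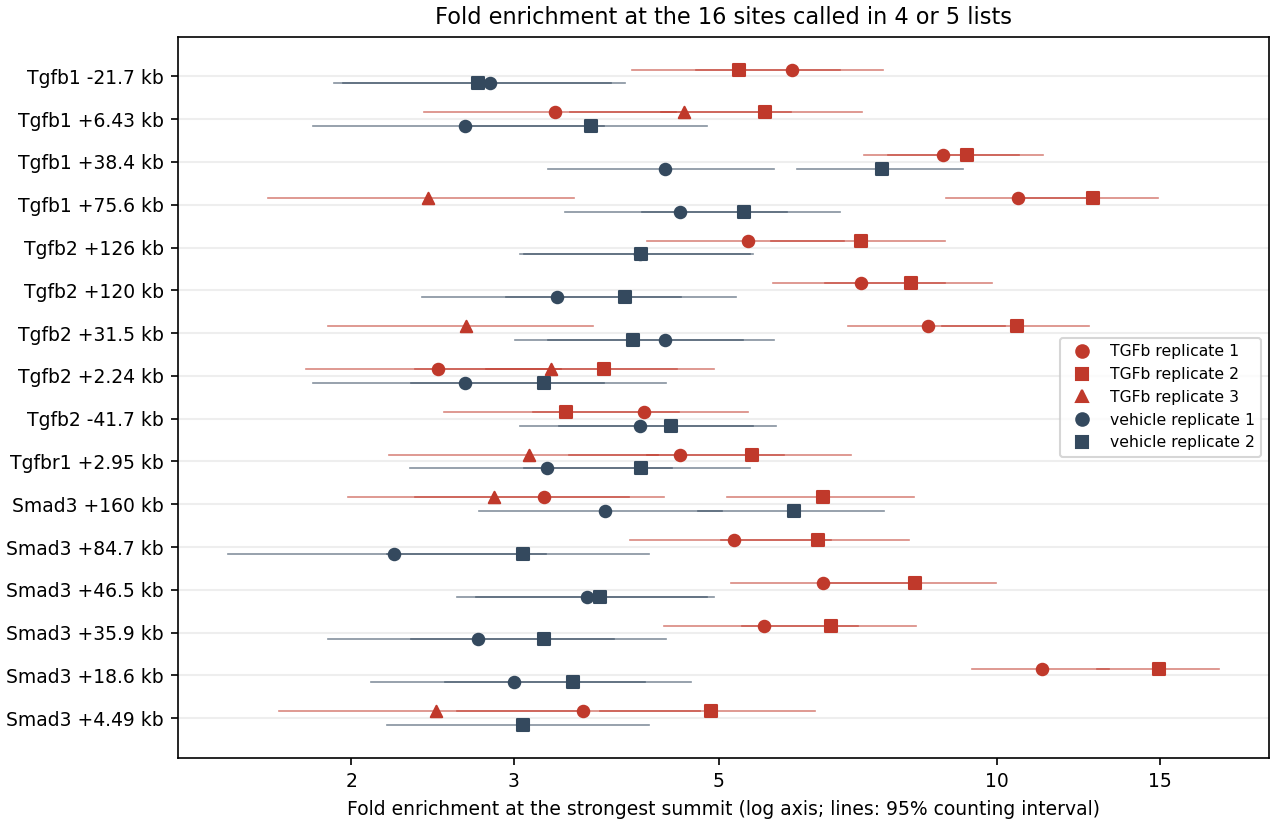
Fold enrichment at the strongest summit, on a log axis, of the 16 sites called in 4 or 5 lists, each named by gene and distance from the nominal start; points are libraries, lines are 95% counting intervals, and vehicle replicate 3 called none of them. At the Smad3 site at 18.6 kb the TGFβ points, 11.2 and 14.99, stand clear of the vehicle points, 2.998 and 3.47, whereas at the Tgfb2 site at 2.24 kb the treatments overlap.

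Over the 15 sites called in all 4 batch 1 lists (17.7% of all regions were), both TGFβ folds exceeded both vehicle folds at 11 sites, and the reverse held at none. Over the 11360 regions of the genome called in those lists, 68.7% met the former rule and 1.6% the latter. Pair by pair, the fold was higher with TGFβ in both pairs at 12 of the 15 sites (84.7% of those regions) and lower in both at none (3.12%). The median TGFβ to vehicle ratio, as the geometric mean of the batch 1 pairs, was 1.99 at the 15 sites and 1.49 over all such regions, of which the middle 80% had ratios from 1.06 to 2.43. The Smad3 site at 18.6 kb had a ratio of 4.01, reached by 1.23% of the regions, and the other 14 sites ran from 0.881 to 2.35. That share is for a region taken singly, whereas this site is the highest of 15 and was picked after its values were seen. Ratios above 1 were thus the rule in batch 1, in these windows as elsewhere.

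A ratio exists only at shared sites, those called in all 4 batch 1 lists. Of the 10 sites within 10 kb of the nominal start, 3 were shared. These 3, at Tgfb1, Tgfb2 and Tgfbr1, had low ratios of 1.39, 1.04 and 1.36. The other near-start sites lacked a call in at least 1 batch 1 vehicle list, so their ratios are unknown. Among them was the Tgfb1 site at 0.378 kb, called in both batch 1 TGFβ libraries and no vehicle library. The 5 shared sites deeper in the nominal gene bodies of Tgfb2 and Smad3 had a median of 2.20 (range 1.99 to 4.01), the 5 beyond the nominal ends a median of 1.57 (range 0.961 to 2.35), and the 2 upstream sites 0.881 and 2.02. This grouping by position was made after the values were seen, and no test was run on it. Each ratio compares the strongest summit of each list in the site. Batch 1 summits spanned 1066 bp at the Tgfb1 start-side site and 495 bp at the Smad3 site at 84.7 kb.

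**Figure D4:**
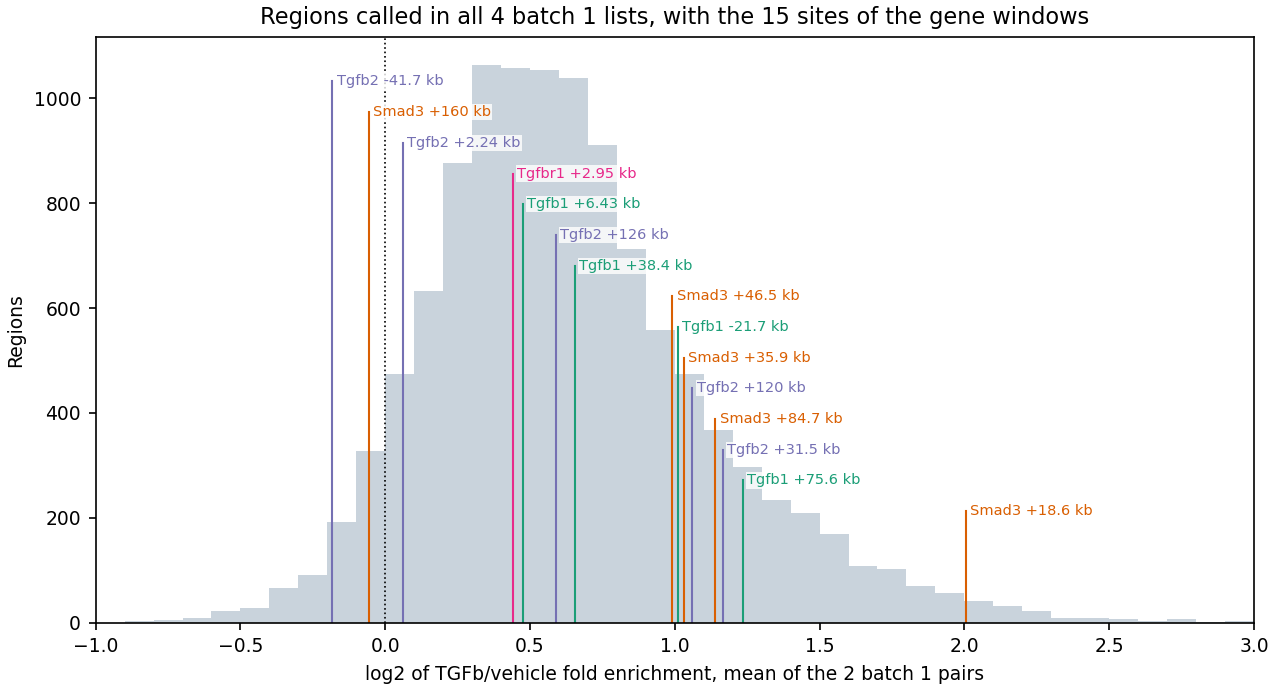
Histogram of the log2 TGFβ to vehicle ratio of fold enrichment (geometric mean of the batch 1 pairs) over 11360 regions called in all 4 batch 1 lists; coloured lines mark the 15 sites of the gene windows, by gene and distance from the nominal start, and their heights only separate the labels. The Smad3 site at 18.6 kb, with a ratio of 4.01, lies in the right tail, and the Tgfb2 site at -41.7 kb lies just left of 0.

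Sites called in both TGFβ and neither vehicle library of batch 1 numbered 11 of 50 (22%, against 16% of all regions), and none showed the reverse (0.204% of all regions). They were 2 each at Tgfb1, Tgfb2, Tgfbr1 and Tgfbr2 and 3 at Smad3. Their folds ran from 1.81 to 6.48 in TGFβ replicate 1 and from 2.36 to 7.19 in TGFβ replicate 2, and were higher in replicate 2 at 10 of the 11. None was called in TGFβ replicate 3. By nominal position the 11 were 5 of the 12 upstream sites and 4 of the 15 in the gene body. The rest were 1 of the 10 within 10 kb of the start and 1 of the 13 beyond the end. TGFβ replicate 2, which has the longest list, alone called a further 13 sites (26%, against 20.1% of all regions), with folds from 2.02 to 3.42.

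Batch 2 lists called 9 of the 50 sites (18%, against 40.2% of all regions). TGFβ replicate 3 called 8 of the 50 (16%, against 27.7% of all regions). Of these 8, 4 lay within 10 kb of the nominal starts of Tgfb1, Tgfb2, Tgfbr1 and Smad3, as did 10 of the 50 sites for any nominal start. No such share was computed over all regions, and the placement was not tested. Vehicle replicate 3 called 2 (4%, against 24.5%), both at Tgfb2 and both away from the start. Median peak width was 343 bp in the batch 2 TGFβ list and 319 bp in the batch 2 vehicle list, against 523 to 735 bp in batch 1, and median fold was 2.60 and 2.42 against 3.08 to 3.33. The part of these differences in the number of batch 2 calls was not tested. At the 135 peaks of the windows the background was at most 1.47 times the most common background of the list, and within 1.1 times of it at 91.9% of the peaks.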

How the data were processed

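RUNX1 ChIP-seq of MLE cells gave 6 peak lists, 3 per treatment, as deposited by the authors. Per the submitters' processing notes, DRAGEN, Trimmomatic, Bowtie2 2.5.2 and MACS2 were used with build GRCm39; the control library, threshold and filters are not given in the sources used here. Lists were made per library, per the labels. The deposited values of a peak are a fold enrichment (ratio to background), −log10 p-values and q-values, and a score that is 10 times the −log10 q-value. The lists hold no read totals, so depth is unknown and precision is stated only through recovered fragments.

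Peaks were assigned by summit, 1-based, and merged where they overlapped by 1 bp. Calls, covered length and folds were computed in Python 3.11.15 with numpy 2.4.6, pandas 2.3.3 and scipy 1.17.1, and figures drawn with matplotlib 3.10.9. In a site with several peaks of a list, that with the highest −log10 q was used. Fragments were recovered from fold = (pileup + 1)/(background + 1) and the Poisson tail, and matched −log10 p within 0.001 at all 135 peaks. Tests were two-sided exact permutations over libraries. Pairs follow batch and title wording, and other replicate numbers follow deposit order. Functions were tested on simulated data.

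The members, lists and windows were chosen with earlier results of these data known. Named sites were, per window, the most recurrent site with the highest median −log10 q percentile, sites in all 6 lists, sites in all libraries of a treatment and none of the other, and sites called in both TGFβ libraries of batch 1, in neither vehicle one, with a fold of at least 5; all other sites the text names were chosen after their values were seen. The alternatives tried kept only peaks with −log10 q of 5 or more, lists of equal length, peaks no wider than 2000 bp, peaks with a fold of at least 3 or batch 1 alone; others left out each library, paired the libraries, or used summit windows of 200 bp and peaks 50% shared. Windows narrowed or widened by 50 kb were chosen after seeing the data. Gene starts, motifs under peaks and other genes of the pathway were not analysed here, since no annotation or genome of GRCm39 was used.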

Additional observations from a re-analysis of the deposited data

How the results depend on the processing

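TGFβ exceeded vehicle in covered length at all 5 genes under 14 alternatives each, by amounts that varied. The same held for peak number at Tgfbr1, Tgfbr2 and Smad3. Of the 14, the replicate block keeps the difference by construction and could not have reversed it. Leaving out 1 library gave covered-length ratios of 1.37 to 3.50 at Tgfb1, 1.65 to 4.22 at Tgfb2, 1.63 to 4.75 at Tgfbr1, 1.61 to 5.56 at Tgfbr2 (no ratio without vehicle replicate 2, when vehicle is at 0) and 2.29 to 10.5 at Smad3, the lowest each time without TGFβ replicate 2. Without peaks wider than 2000 bp the ratio at Tgfb1 was 1.21 against 2.11. In lists of equal length it was 1.07 at Tgfbr2 against 3.70 and 1.46 at Tgfb2 against 2.56, and the peak differences at Tgfbr2 and Smad3 were 0.333 against 1.67 and 1.33 against 5.67. The peak number reversed at Tgfb2 in lists of equal length, to a TGFβ minus vehicle difference of -1.33 peaks against 3.0, and at Tgfb1 without vehicle replicate 3, to -0.833 against 1.33 (range on leaving out 1 library -0.833 to 2.67). The cause was not tested. Summed over the windows, the difference of 14.3 peaks ran from 2.33 to 24.7 and kept its sign. The difference in peaks per 10000 of the list, 0.181, had no stable sign: it was -0.31 with peaks no wider than 2000 bp and -1.51 in batch 1 alone, and leaving out 1 library gave -3.45 to 2.12, with -0.986 without TGFβ replicate 1, -0.594 without TGFβ replicate 2 and -3.45 without vehicle replicate 3. With fewer lists to satisfy, sites in all TGFβ and no vehicle libraries rose from 0 to 11 in batch 1 alone, and to between 0 and 11 on leaving out 1 library (11 without TGFβ replicate 3, 1 without vehicle replicate 2); sites in all libraries rose from 0 to 15 in batch 1 alone and to between 0 and 6 on leaving out 1 (6 without vehicle replicate 3). Sites in all vehicle and no TGFβ libraries stayed at 0 in all 13 alternatives. With the replicate block (pairing by batch and title) the differences are the same by construction, 14.3 peaks over the windows and 0.181 per 10000, and exact sign-flip p-values were 0.25 or 0.5, where 0.25 is the smallest possible. Flanks of 0 and 100 kb on annotated genes were not run. Without read counts, an uncalled site may sit just below the cutoff of its list.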
